A study of Mus musculus with 12 samples.

Results

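The genes of IgA secretion and of plasma cells were examined in the distal colon of mice lacking Sprouty2 in the intestinal epithelium. The 9 genes were Igha, Ighm, Igkc, Jchain, Pigr, Mzb1, Tnfrsf17, Tnfsf13 and Tnfsf13b. They were chosen by gene symbol and make up 9 of the 35241 symbols measured, with 20 transcripts whose values were summed per gene. RNA of full-thickness distal colon was sequenced from 12 mice. Of these, 6 were Spry2IEKO mice (Vil1::Cre;Spry2-f/f), in which Cre under the villin promoter deletes floxed Spry2 in intestinal epithelial cells only, and 6 were Spry2FF littermates (Spry2-f/f) without Cre, so both groups carried the floxed alleles. Litters A and B each gave 3 mice of each genotype. In the library names, all mice of litter A share a prefix and all mice of litter B another. What the prefix stands for is not stated, so differences between litters cannot be told apart from it. Sexes were unequal, with 3 males among the Spry2FF mice and 1 among the Spry2IEKO mice, the others being females. The labels give an age of 6 weeks in one protocol and 8 weeks in another, name no strain, and describe no treatment. Mice are named by genotype and by the library number of their label. The deposited value, called signal here, is TPM, a measure of transcripts relative to all transcripts of a library, that was scaled once more between mice, so it is per length and comparable between genes, but it keeps no read depth and allows no counting interval.

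IgA is the antibody class of mucosal surfaces. Plasma cells of the lamina propria assemble it from an alpha heavy chain (Igha) and a kappa or lambda light chain (Igkc for kappa), and join IgA monomers into dimers through the joining chain (Jchain). The polymeric immunoglobulin receptor (Pigr) on the basolateral face of epithelial cells binds these dimers, carries them across the cell and is cleaved to release them into the lumen. APRIL (Tnfsf13) and BAFF (Tnfsf13b) are cytokines that keep B cells and plasma cells alive, and BCMA (Tnfrsf17) is their receptor on plasma cells. Naive B cells, in contrast, carry membrane IgM (Ighm) and IgD (Ighd) and lie in lymphoid follicles of the gut wall.

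Alternative 3' ends decide whether a heavy chain is secreted or held in the membrane, and the table lists both forms of Igha and Ighm. The sequences below were taken from the GENCODE M21 transcripts (GRCm38, minus strand of chromosome 12) because the shares of these forms are reported further on. The secreted form ends in a short tail whose capitals mark the codon before the last, a cysteine codon known to link chains in polymers and to the joining chain. The tail of Igha lies at chr12:113258768-113258829 and that of Ighm at chr12:113420867-113420928. In both, the first bases are also the splice donor that the membrane form uses.
Igha secreted tail: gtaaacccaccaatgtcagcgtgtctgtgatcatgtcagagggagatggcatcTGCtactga
Ighm secreted tail: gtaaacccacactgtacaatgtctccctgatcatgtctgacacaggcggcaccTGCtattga
The 2 tails are 62 bases long each, stop codon included, and 43 of the 62 bases (69.4%) are identical. The membrane forms replace the tail by coding sequence of further exons, 197 bases in 1 exon for Igha (chr12:113256201-113256397) and 125 bases in 2 exons for Ighm (chr12:113418953-113419068 and chr12:113418826-113418834). Capitals mark their stop codons.
Igha membrane tail: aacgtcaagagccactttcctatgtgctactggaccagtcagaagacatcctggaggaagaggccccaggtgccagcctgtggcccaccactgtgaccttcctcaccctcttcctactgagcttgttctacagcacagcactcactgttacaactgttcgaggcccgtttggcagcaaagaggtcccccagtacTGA
Ighm membrane tail: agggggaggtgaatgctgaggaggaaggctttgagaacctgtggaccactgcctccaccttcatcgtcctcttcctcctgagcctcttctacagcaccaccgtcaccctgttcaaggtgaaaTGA

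Jchain and Pigr are the non-immunoglobulin partners of IgA in the plasma cell and in the epithelium, and their values behaved differently, so their promoters are shown as well (RefSeq, GRCm38.p6, 250 bases before to 50 after the start). Both strands were searched for the octamer ATTTGCAT of immunoglobulin promoters, the E-box CACGTG, the interferon response repeat and the AP-1 motif TGANTCA, with any overlap allowed. These occur in 1.74%, 7.15%, 3.44% and 7.81% of the 32851 promoters of this length. The Jchain promoter (chr5:88527848-88528147, minus strand) held none of these letters. The Pigr promoter (chr1:130826434-130826733, plus strand) held the E-box, in capitals, 71 to 66 bases before the start.
Jchain: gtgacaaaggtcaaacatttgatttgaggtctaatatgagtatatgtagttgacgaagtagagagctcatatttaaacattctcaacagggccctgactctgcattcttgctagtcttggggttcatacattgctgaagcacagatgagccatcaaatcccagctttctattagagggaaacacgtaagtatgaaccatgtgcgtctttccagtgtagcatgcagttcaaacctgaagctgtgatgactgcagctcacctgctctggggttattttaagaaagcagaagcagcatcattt
Pigr: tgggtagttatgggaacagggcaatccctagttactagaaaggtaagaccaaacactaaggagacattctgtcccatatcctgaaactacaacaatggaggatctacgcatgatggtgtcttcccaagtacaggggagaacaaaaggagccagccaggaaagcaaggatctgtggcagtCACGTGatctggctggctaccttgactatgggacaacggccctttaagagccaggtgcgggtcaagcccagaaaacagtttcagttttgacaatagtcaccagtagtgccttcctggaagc

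The 9 genes spanned a wide range of levels. Pigr had the highest mean signal, 1536 ± 121 (SD, n = 12 mice), above 99.6% of the 15880 genes tested. It was followed by Igkc at 936 ± 883, Igha at 440 ± 383 and Jchain at 123 ± 112. Ighm was at 54.0 ± 69.5, Tnfsf13 at 27.2 ± 2.87, Mzb1 at 6.24 ± 7.71, Tnfsf13b at 5.82 ± 1.51 and Tnfrsf17 at 0.777 ± 0.691. Igkc was above Igha, and Igha above Jchain, in 12 of 12 mice, and Pigr was above Igkc in 11 of 12. Neighbouring levels of Ighm and Tnfsf13 (Ighm higher in 5 of 12 mice) and of Mzb1 and Tnfsf13b (Mzb1 higher in 4 of 12) were not separated.

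The genes also split by how much they varied between mice. Igha, Igkc, Jchain, Mzb1 and Ighm each had a between-mouse SD on the log2 scale above that of more than 95% of tested genes (95.8% for Igha, 99.4% for Ighm), whereas that of Tnfsf13 was above 16.3% of them and that of Pigr above 7.38%. Tnfrsf17 (90.4%) and Tnfsf13b (68.6%) lay between. Pigr differed 1.36-fold between its lowest and highest mouse, and Tnfsf13 1.40-fold. Igha differed 18.0-fold, Jchain 16.6-fold, Igkc 33.9-fold and Ighm 102-fold. The mouse Spry2IEKO 4 was the highest in Igha, Igkc, Jchain, Ighm, Mzb1 and Tnfrsf17 and the lowest in Pigr, and Spry2FF 9 was the lowest in Igha, Igkc, Jchain, Ighm, Mzb1 and Tnfsf13.

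**Figure D1:**
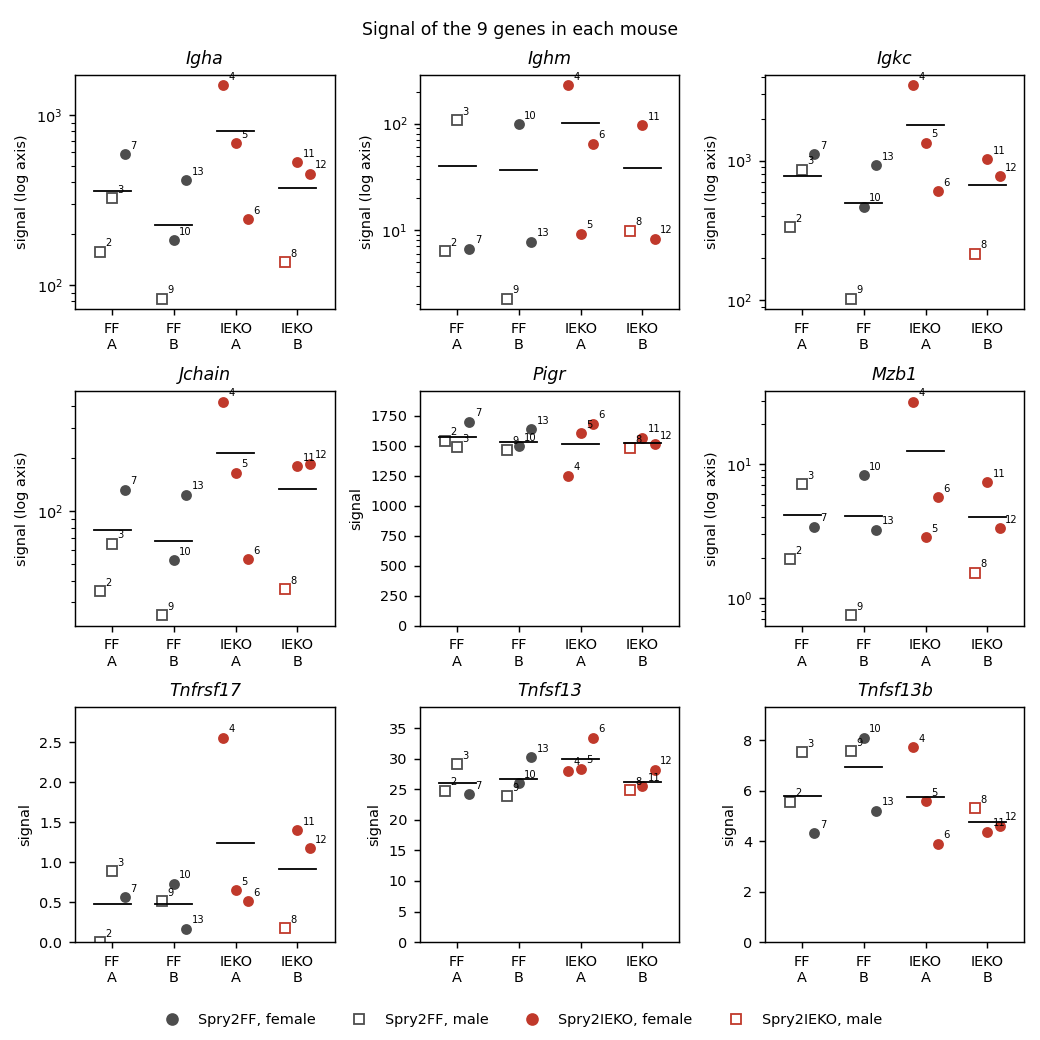
Signal of each of the 9 genes in the 12 mice, by genotype (FF, Spry2FF; IEKO, Spry2IEKO) and litter (A, B), with the library number beside each point and a line at the mean of each group of 3. Circles are females and open squares males; the axis is logarithmic for Igha, Ighm, Igkc, Jchain and Mzb1 and starts at 0 for the others. Pigr and Tnfsf13 stay within narrow bands while Igha spreads 18.0-fold and Ighm 102-fold.

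Some properties of the libraries bear on these values. Spry2 itself was 18.5 to 22.5 in Spry2IEKO mice and 22.8 to 32.3 in Spry2FF mice, without overlap, as labelled (exact permutation test, two-sided, p = 0.00216, the smallest that 6 against 6 allow). Which cells gave the remaining Spry2 signal, and how complete the deletion was, was not tested. The summed signal of 6 fat markers was 422 in Spry2IEKO 4 and 802 in Spry2IEKO 5, against 20.2 to 76.5 in the other 10 mice. The summed signal of 6 smooth muscle markers was 5459 to 7887 in the 4 males and 3226 to 5145 in the 8 females, without overlap. The summed signal of 10 colon epithelial markers lay between 7594 and 11377, lowest in Spry2IEKO 4. It was 8820 ± 853 (SD, n = 6) in Spry2IEKO and 9894 ± 861 in Spry2FF mice, and 6 of the 10 had an unadjusted limma p under 0.05 for genotype, none passing after adjustment. Vil1, whose promoter drives Cre, was 270 ± 23.5 and 318 ± 19.5 (log2 fold change -0.23, limma adjusted p = 0.61). The part of this difference in the genotype comparison below was not tested. In bulk tissue, fewer cells of a type and less RNA per cell cannot be told apart.

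Igha (ENSMUSG00000095079, chromosome 12, 113254830 to 113260236, minus strand) encodes the constant region that defines IgA. In Spry2FF mice, its signal was 157, 322 and 588 in litter A (mice 2, 3 and 7) and 82.8, 183 and 413 in litter B (mice 9, 10 and 13). In Spry2IEKO mice, it was 1491, 682 and 244 in litter A (mice 4, 5 and 6) and 136, 527 and 451 in litter B (mice 8, 11 and 12). The genotypes overlapped widely, and 2 of 6 Spry2IEKO mice were above every Spry2FF mouse. The 3 lowest mice of the 12 (Spry2FF 9, Spry2IEKO 8 and Spry2FF 2) were all males.

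Igkc (ENSMUSG00000076609, chromosome 6, 70726435 to 70726966, plus strand), the kappa constant region, which is 1 exon, followed nearly the same order. Its signal was 334, 861 and 1115 in Spry2FF litter A and 102, 468 and 926 in litter B. It was 3470, 1342 and 601 in Spry2IEKO litter A and 215, 1026 and 773 in litter B, with the mice in the order given for Igha. The highest value, in Spry2IEKO 4, was followed by 1342 in Spry2IEKO 5.

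Jchain (ENSMUSG00000067149, chromosome 5, 88519809 to 88527891, minus strand) encodes the joining chain. Its signal was 34.8, 65.0 and 133 in Spry2FF litter A and 25.4, 52.5 and 124 in litter B, against 423, 165 and 53.2 in Spry2IEKO litter A and 35.6, 180 and 186 in litter B. In Jchain, 4 of 6 Spry2IEKO mice were above every Spry2FF mouse, and the other 2 lay inside the Spry2FF range. Its protein-coding transcript carried 98.9% of the mean signal and a retained-intron transcript 1.12%.

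Ighm (ENSMUSG00000076617, chromosome 12, 113418558 to 113422730, minus strand), the constant region of IgM, did not follow the order of Igha. Its signal was 6.28, 108 and 6.68 in Spry2FF litter A and 2.25, 98.7 and 7.74 in litter B. In Spry2IEKO mice it was 230, 9.20 and 65.0 in litter A and 9.80, 96.6 and 8.30 in litter B. Values fell into a high range of 65.0 to 230 in 5 mice and a low range of 2.25 to 9.80 in 7 mice, with none between, and both genotypes and both litters had mice in each range. Ighd, the constant region of IgD and a marker of naive B cells, was 31.4 to 115 in the 5 mice of high Ighm and 0.236 to 4.51 in the others. The summed signal of 15 mature B cell markers was 149 to 569 in the first and 9.42 to 27.8 in the second. The summed signal of 9 follicle stroma genes, 297 to 742 in the first and 26.6 to 164 in the second, followed the same division.

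Mzb1 (ENSMUSG00000024353, chromosome 18, 35647267 to 35649367, minus strand) encodes a chaperone of the endoplasmic reticulum of B cells and antibody-secreting cells. Its signal was 1.94, 7.12 and 3.42 in Spry2FF litter A and 0.744, 8.27 and 3.25 in litter B, against 29.5, 2.83 and 5.69 in Spry2IEKO litter A and 1.54, 7.32 and 3.31 in litter B. The 5 highest mice were the 5 mice of high Ighm. The 3 lowest were the males Spry2FF 9, Spry2IEKO 8 and Spry2FF 2, which were also lowest in Igha.

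Secreted and membrane forms were divided differently in IgA and IgM. Of the Igha signal, 99.2% to 99.9% came from the secreted form (ENSMUST00000178282.2, median 99.6%) and 0.150% to 0.754% from the membrane form (ENSMUST00000194738.5). Of the Ighm signal, 51.7% to 88.5% came from the membrane form (ENSMUST00000177715.7, median 77.6%). The secreted form of Ighm (ENSMUST00000103426.2) took its largest share, 48.3%, in Spry2IEKO 5, where total Ighm was 9.20. The membrane share of Igha was 0.337% ± 0.161 (SD, n = 6) in Spry2IEKO and 0.488% ± 0.215 in Spry2FF mice, and that of Ighm 75.5% ± 12 and 70.1% ± 13.3, and neither difference exceeded the spread between mice (exact permutation, two-sided, p = 0.191 and 0.474). Both forms share 972 coding bases in Igha and 1305 in Ighm, so the division of reads between them rests on the sequence they do not share, which is the tails shown above and untranslated sequence.

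IgA made up most of the heavy chain constant signal. Its share was 89.4% to 97.9% in 7 mice and 52.3% to 79.2% in the 5 mice of high Ighm. The 4 Ighg genes together took 0.442% to 3.27%. The signal of all light chain constant genes was 1.98 to 2.84 times that of all heavy chain constant genes, while the heavy chain sum ranged from 86.3 to 1883.

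Lambda light chains (Iglc) took very different shares of the light chain constant signal. The share was 3.66%, 14.2% and 14.3% in Spry2FF litter A, and 16.6%, 13.8% and 14.0% in Spry2IEKO litter A. In litter B, it was 50.5%, 33.6% and 3.97% in Spry2FF and 32.7%, 36.5% and 41.7% in Spry2IEKO mice. In all, 5 of 6 mice of litter B were above all mice of litter A, and Spry2FF 13 was not. The mean was 33.2% ± 15.7 (SD, n = 6) in litter B and 12.8% ± 4.58 in litter A (exact permutation, two-sided, p = 0.013, adjusted p = 0.117 over 18 tests of 6 composition measures). The Jchain to Igha ratio was 0.262 to 0.414 in litter B and 0.202 to 0.283 in litter A, with means of 0.319 ± 0.0532 and 0.232 ± 0.0283 (exact permutation p = 0.00433, adjusted p = 0.0779). Within Spry2FF mice, the ratio was 0.298 ± 0.00982 (SD, n = 3) in litter B and 0.216 ± 0.0129 in litter A, without overlap, where the smallest exact permutation p that 3 against 3 allow is 0.1. Within Spry2IEKO mice, the litters overlapped, with 0.339 ± 0.0756 (SD, n = 3) in litter B and 0.248 ± 0.0328 in litter A (exact permutation p = 0.2). None of the 18 composition tests passed after adjustment, and these measures were chosen after their values had been seen.

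**Figure D2:**
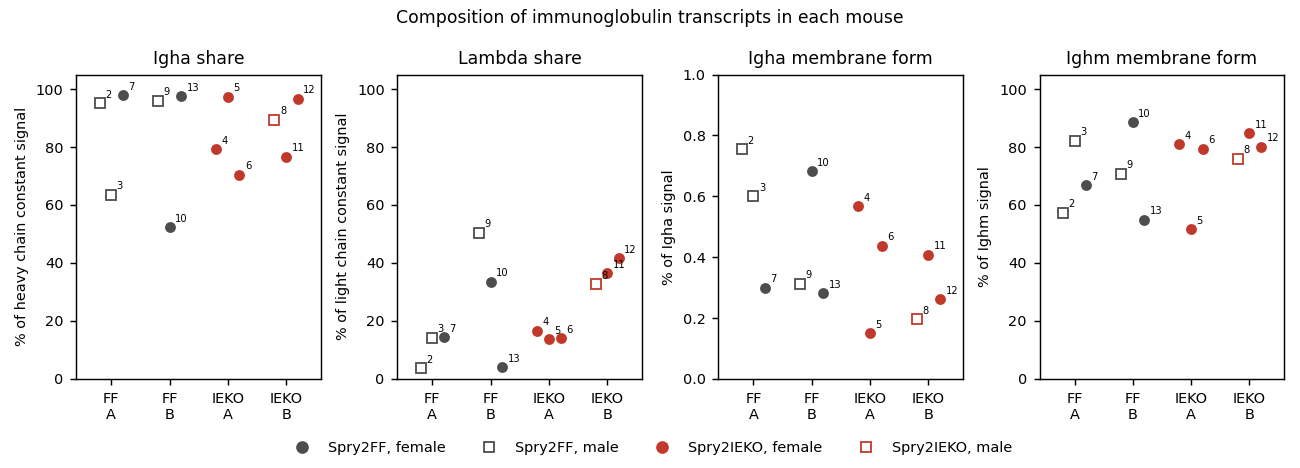
Shares of immunoglobulin transcripts in each mouse, by genotype and litter, in percent, with library numbers beside the points. The panels give Igha as a share of heavy chain constant signal (52.3% to 97.9%), lambda as a share of light chain constant signal (3.66% to 50.5%), and the membrane forms of Igha (axis to 1%) and Ighm (51.7% to 88.5%).

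The leading variable segments differed between many mice, and some were shared within or across litters. Ighv10-3 led the Ighv signal in Spry2FF 9, Spry2FF 10 and Spry2IEKO 8 of litter B, and Ighv3-6 in Spry2IEKO 5 (litter A) and 11 (litter B). Igkv4-91 led the Igkv signal in Spry2FF 9, Spry2IEKO 8 and Spry2IEKO 12 of litter B. In litter A, Igkv16-104 led it in Spry2FF 3 and Spry2IEKO 5, and Igkv10-96 in Spry2FF 7 and Spry2IEKO 6. Igkv5-43 led it in Spry2IEKO 4 (litter A) and 11 (litter B). Of 183 Ighv symbols, 139 were above 0 in some mouse and 10 in all mice, and of 160 Igkv symbols, 108 and 15. The 5 segments of highest mean were Iglv1, Igkv5-43, Igkv6-23, Igkv10-96 and Igkv4-91. Iglv1 ranged from 7.55 to 391, with the highest values in Spry2IEKO 12 (391), 11 (319) and 4 (319). Igkv6-23 was 529 in Spry2IEKO 4 and 2.40 to 57.4 in the other 11 mice. Igkv5-43 was 620 in the same mouse and 220 in Spry2IEKO 11. The leading Ighv segment took from 7.40% of all Ighv signal (Ighv1-9 in Spry2IEKO 6) to 34.5% (Ighv1-53 in Spry2IEKO 12). It was 7.40% to 14.1% in litter A and 18.9% to 34.5% in litter B, without overlap, with means of 10.7% ± 2.45 (SD, n = 6) and 26.3% ± 6.43, a difference seen in the values and not tested. The share of the leading Igkv segment overlapped between litters, at 6.68% to 17.5% in litter A and 9.22% to 33.7% in litter B. Variable segments resemble each other, and reads could be split between near-identical copies, so single segments are uncertain.

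Pigr (ENSMUSG00000026417, chromosome 1, 130826684 to 130852249, plus strand) was the steadiest of the 9 genes. In Spry2FF mice, the lowest, median and highest signals were 1466, 1519 and 1702, and in Spry2IEKO mice 1251, 1541 and 1686. The value 1251 belonged to Spry2IEKO 4, and the other 11 mice lay between 1466 and 1702. The Pigr to Igha ratio therefore ranged from 0.839 in Spry2IEKO 4 to 17.7 in Spry2FF 9. The full-length transcript carried 99.5% of the signal.

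Tnfrsf17 (BCMA; ENSMUSG00000022496, chromosome 16, 11313812 to 11320074, plus strand) was near the lower limit of the genes tested. In Spry2FF mice it was 0, 0.886 and 0.559 in litter A and 0.513, 0.729 and 0.169 in litter B. In Spry2IEKO mice it was 2.55, 0.648 and 0.514 in litter A and 0.177, 1.40 and 1.18 in litter B. The 3 Spry2IEKO mice 4, 11 and 12 were above every Spry2FF mouse. The table listed it at 0 in Spry2FF 2.

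Of the ligands of BCMA, Tnfsf13 varied 1.40-fold and Tnfsf13b 2.07-fold between mice. Tnfsf13 (APRIL; ENSMUSG00000089669, chromosome 11, 69682846 to 69685784, minus strand) had a lowest, median and highest signal of 23.8, 25.4 and 30.3 in Spry2FF and 24.8, 28.1 and 33.4 in Spry2IEKO mice. An annotated readthrough of the neighbouring Tnfsf12 and an antisense gene overlap Tnfsf13, so part of its signal is uncertain. Tnfsf13b (BAFF; ENSMUSG00000031497, chromosome 8, 10006467 to 10039072, plus strand) had 4.31, 6.55 and 8.10 in Spry2FF and 3.91, 4.96 and 7.74 in Spry2IEKO mice. Its signal lay mostly on transcripts annotated as a retained intron (36.6% of the mean) and as subject to nonsense-mediated decay (31.8%), and the 2 coding transcripts held 17.0% and 6.32%.

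The comparison of genotypes asks whether loss of epithelial Sprouty2 changed these genes. None of the 9 passed limma's test at an adjusted p of 0.05, where 0.0315% of all 15880 genes tested passed. None had an unadjusted p under 0.05, which 6.18% of all genes had. Of the 9 estimates, 7 were positive, with a median log2 fold change of 0.61 against 0.01 over all genes, of which 52.1% were positive. Igha was 588 ± 484 (SD, n = 6) in Spry2IEKO and 291 ± 188 in Spry2FF mice, and the log2 fold change was 0.90 (standard error 0.565, 95% interval -0.32 to 2.12, limma adjusted p = 0.844). Jchain was 174 ± 138 and 72.4 ± 45.6, with 1.07 (standard error 0.579, interval -0.18 to 2.32, limma adjusted p = 0.836, exact permutation p = 0.0823). Igkc had 0.84 (interval -0.58 to 2.27), Ighm 1.13 (interval -1.20 to 3.45), Mzb1 0.61 (interval -0.72 to 1.94) and Tnfrsf17 0.61 (interval -0.18 to 1.40). These intervals hold both no difference and increases of over 2-fold, so the comparison was limited by the spread between mice.

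The epithelial receptor and the ligands were measured more tightly. Pigr had a log2 fold change of -0.04 (standard error 0.0759, interval -0.20 to 0.12), so its level in Spry2IEKO mice was between 0.869 and 1.09 times that of Spry2FF mice at 95%. Tnfsf13 had 0.09 (interval -0.10 to 0.28) and Tnfsf13b -0.26 (interval -0.65 to 0.14). The smallest limma adjusted p of the 3 was 0.861, for Tnfsf13b.

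The genotype groups differed in sex, and the estimates of the plasma cell genes moved with it. With sex as covariate, the log2 fold change of Igha was 0.41 (standard error 0.487), that of Igkc 0.26 and that of Jchain 0.53. Among females alone, 5 Spry2IEKO against 3 Spry2FF mice, they were 0.68, 0.58 and 0.80. Without Spry2IEKO 4 and 5, they were 0.32, 0.20 and 0.55, with 0.22 for Mzb1, 0.40 for Tnfrsf17, 0.87 for Ighm and -0.42 for Tnfsf13b. For Tnfsf13b this gave a limma adjusted p of 0.923, with 0.0406 before adjustment. Single mice moved the estimates as well. Without Spry2IEKO 4 alone, the log2 fold change was 0.56 for Igha, 0.45 for Igkc, 0.73 for Jchain, 0.57 for Ighm, 0.14 for Mzb1 and 0.38 for Tnfrsf17, and without Spry2FF 9 that of Igkc was 0.39. Without Spry2IEKO 8, it was 1.25 for Igha, 1.44 for Jchain and 0.82 for Tnfrsf17, with unadjusted limma p of 0.0346, 0.0179 and 0.0348 and adjusted p of 0.57, 0.512 and 0.57. Within litter A, the difference of the mean log2 signal of Igha was 1.02 and within litter B 0.79, and for Jchain it was 1.21 and 0.94. In litter A, all males were Spry2FF mice, while in litter B each genotype had a male. The genotype by litter interaction called none of the 9 genes, against 0.0126% of all genes, and the interaction of Igha was -0.23 (standard error 1.12). With sex as covariate, the interaction changed sign, to 0.87 for Igha and 0.95 for Jchain.

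**Figure D3:**
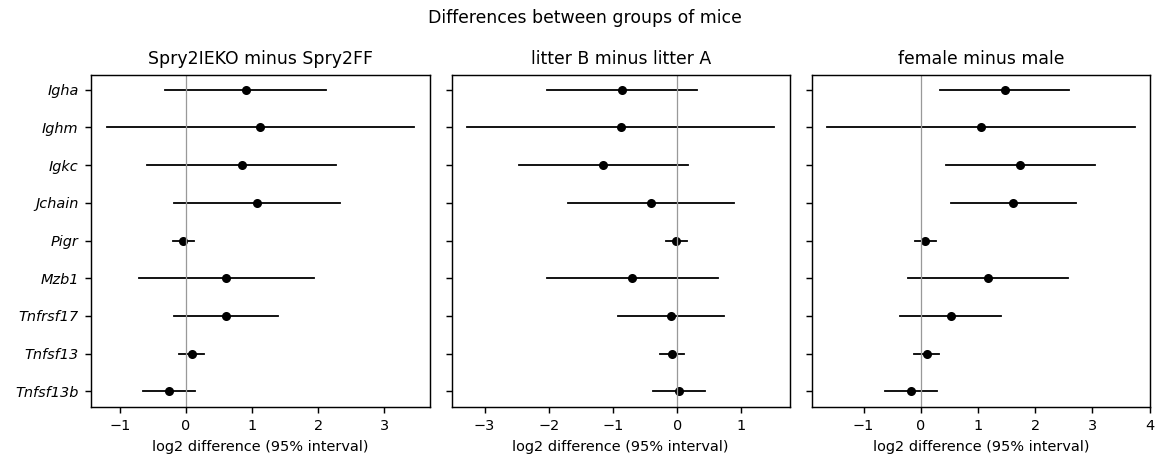
Log2 differences of the 9 genes for genotype, litter and sex (points) with their 95% intervals (lines) from limma on log2(signal + 0.5). All intervals for genotype and litter include 0, and for sex those of Igha, Igkc and Jchain lie above 0 before adjustment for the number of genes.

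The comparison of litters, with genotype in the fit, called none of the 9 genes, where 4.38% of all genes passed the adjusted threshold. None had an unadjusted p under 0.05, which 21.9% of all genes had. Igkc came nearest, with a log2 difference of litter B to litter A of -1.15 (standard error 0.606, interval -2.47 to 0.17, limma adjusted p = 0.293). Igha had -0.86 (interval -2.03 to 0.30) and Jchain -0.41 (interval -1.71 to 0.88). Pigr had -0.01 (interval -0.18 to 0.15). Without Spry2IEKO 4 and 5, the difference was -0.37 for Igha, -0.67 for Igkc, -0.40 for Mzb1, 0.14 for Jchain and 0.25 for Tnfsf13b. Of the 9 estimates, 8 were negative, with a median of -0.41 against -0.05 over all genes, of which 41.2% were positive.

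Sex was compared after the values by mouse had been seen, since the males had low IgA transcripts. Igha was 572 ± 407 (SD, n = 8) in females and 174 ± 103 (SD, n = 4) in males, Igkc 1215 ± 953 and 378 ± 336, and Jchain 165 ± 116 and 40.2 ± 17.2. With genotype in the fit, the log2 differences of females to males were 1.46 for Igha (standard error 0.516, interval 0.34 to 2.59), 1.74 for Igkc (standard error 0.598, interval 0.44 to 3.04) and 1.62 for Jchain (standard error 0.499, interval 0.53 to 2.71). These 3 of the 9 genes had an unadjusted p under 0.05 in limma, which 6.4% of all genes had, and their limma adjusted p were 0.647, 0.631 and 0.541. None of the 9 passed after adjustment, where 0.0882% of all genes passed. The sexes overlapped in Igha, Igkc and Jchain through the male Spry2FF 3. The exact permutation p, with mice exchanged within genotypes, was 0.025 for Igha, 0.0417 for Igkc and 0.0167 for Jchain.

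The direction for sex was the same inside each genotype. This is no separate test, since sex was chosen after the values of these same mice had been seen. In Spry2FF mice, with 3 of each sex, mean Igha was 395 in females and 187 in males, and mean Jchain 103 and 41.7 (exact permutation p = 0.2 for each, where 0.1 is the smallest possible). In Spry2IEKO mice, the single male (8) had an Igha of 136, below the 5 females at 244 to 1491. Without it, the log2 difference of Igha was 1.13, with an unadjusted limma p of 0.111. Pigr had a log2 difference of 0.08 (interval -0.11 to 0.27) and Tnfsf13 0.10 (interval -0.11 to 0.32). The smooth muscle markers given above were higher in males without overlap, and their part in the difference was not tested.

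Across the 12 mice, Igha, Igkc and Jchain rose and fell together. Pearson's r of the log2 signal was 0.97 for Igha and Igkc (Spearman's rho 0.98), 0.97 for Igha and Jchain (rho 0.93) and 0.92 for Igkc and Jchain (rho 0.87), with permutation p for r of 1e-05, 1e-05 and 3e-05, of which 1e-05 is the smallest the permutations can give, and adjusted p of 0.00018, 0.00018 and 0.00027 over 36 pairs of genes. The permutation p for rho were 1e-05, 6e-05 and 0.00051. Over the 36 pairs, 9 had an adjusted p for r under 0.05. Without the 2 mice farthest from the median of the first gene, r was 0.96, 0.94 and 0.86. Within litter A, r was 0.986, 0.997 and 0.981, and within litter B 0.97, 0.99 and 0.94. All values of a mouse share a library and its scaling.

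Tnfrsf17 followed Jchain less closely, with r of 0.72 (rho 0.76, permutation p = 0.008, adjusted p = 0.036, r = 0.63 without the 2 farthest mice, 0.85 in litter A and 0.54 in litter B). Within Spry2FF mice this r was 0.10 and within Spry2IEKO mice 0.94. Pigr and Igha had r of -0.16 and rho of 0.29 (permutation p = 0.62 and 0.357), and r was 0.50 without the 2 farthest mice. This r had opposite signs within groups, at 0.81 in Spry2FF and -0.55 in Spry2IEKO mice and at -0.54 in litter A and 0.77 in litter B. Pigr and Tnfsf13b ran in opposite directions, with r of -0.72 (rho -0.76, permutation p = 0.0042, adjusted p = 0.0252), -0.68 without the 2 farthest mice, -0.86 in litter A and -0.53 in litter B. Mzb1 and Igha had r of 0.70 (rho 0.53, permutation p = 0.0115, adjusted p = 0.0461) and r of 0.20 without the 2 farthest mice, so the relation rests on those mice, and for Mzb1 and Igkc r went from 0.79 to 0.40. Mzb1 and Tnfrsf17 had r of 0.75 (rho 0.76, adjusted p = 0.0286) and 0.70 without the 2 farthest mice. Ighm fell into separate ranges, so no pooled r with Ighm is given. In both ranges of Ighm, mice were found at high and at low Igha.

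**Figure D4:**
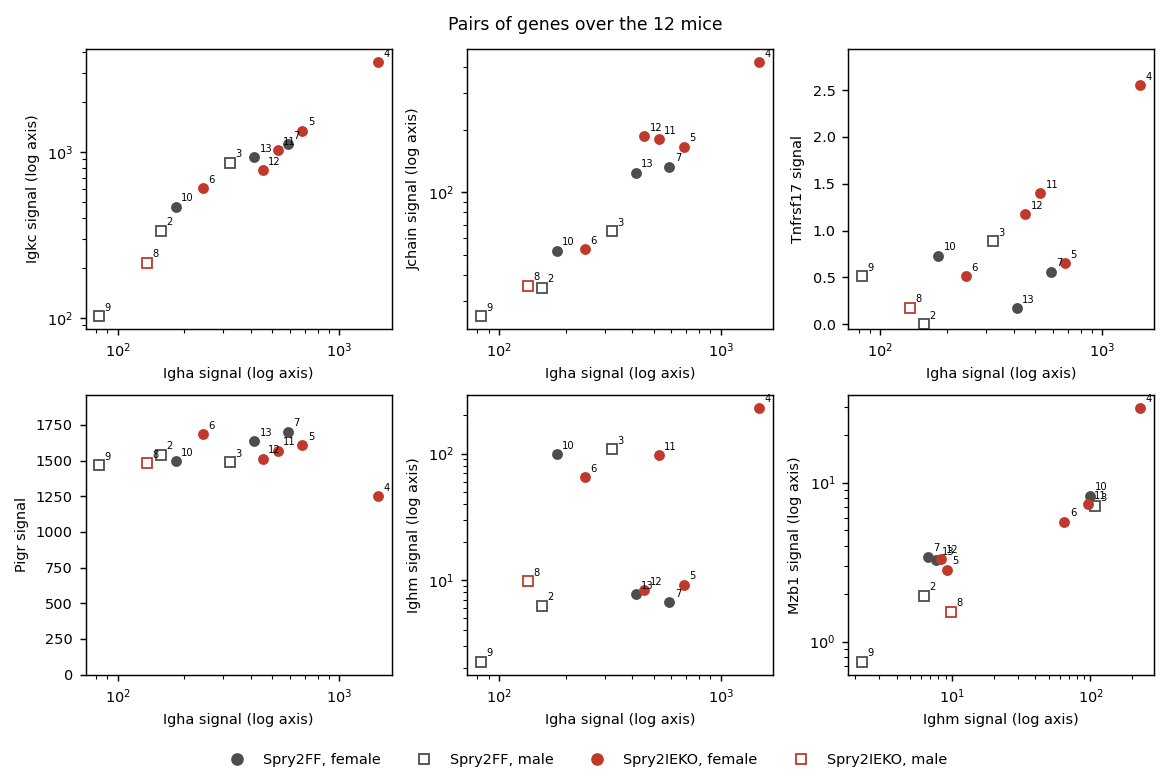
Signal of pairs of the genes in the 12 mice (circles, females; open squares, males; grey, Spry2FF; red, Spry2IEKO), on logarithmic axes except for Pigr and Tnfrsf17. Igkc and Jchain follow Igha over its 18.0-fold range, Pigr stays between 1251 and 1702, and Ighm lies in a range from 65.0 to 230 and in another from 2.25 to 9.80, each with mice of high and of low Igha.

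The genes whose pattern over the 12 mice was most like each of the 9 were sought among all tested genes outside the set, by Pearson's r of the log2 signal. Nearest to Igha were the variable segment Ighv1-7 (r = 0.95), Chchd3 (0.91) and Prdx3 (0.91), and nearest to Igkc were Ighv3-2 (0.95), Itfg1 (0.95) and Ighv1-7 (0.94). For Jchain they were Clca3a1 (0.91), Smim26 (0.91) and Cul2 (0.90). For Ighm, the same ranking gave Cd79a, Ly6d and H2-Ob, and no r is printed since Ighm fell into separate ranges. Cd79a, which ranged from 0.0832 to 85.5 in signal, encodes a chain of the B cell receptor and H2-Ob an MHC class II-like chain of B cells. Mzb1 was nearest to Srgn (0.98), Emb (0.97) and Plcg2 (0.97). Tnfrsf17 was nearest to the lambda constant region Iglc3 (0.97), Klrd1 (0.93) and Gjb2 (0.92). Pigr was nearest to Hoxa10 (0.94), Afg3l2 (0.84) and Pomt1 (0.84), Tnfsf13 to AI413582 (0.82), Cd14 (0.82) and Lpar6 (0.81), and Tnfsf13b to Mrpl38 (0.86), Snx4 (0.84) and Eif3d (0.84). With 15880 genes and 12 mice, high values of r arise among unrelated genes, and these are a description.

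Other genes of the pathway were taken from lists. Of 17 tested genes of the plasma cell program, which holds Jchain, Mzb1 and Tnfrsf17, none passed for genotype or litter after adjustment. Fkbp11, a folding enzyme of secretory cells, was 8.75 ± 2.39 (SD, n = 6) in Spry2IEKO and 6.43 ± 1.07 in Spry2FF mice (log2 fold change 0.39, standard error 0.179, limma adjusted p = 0.81). Sdc1, the plasma cell marker syndecan-1 that colon epithelium also expresses, was 68.6 ± 7.63 and 78.5 ± 10.6. Cd38, another surface marker shared with other cells, was 97.2 ± 4.70 and 106 ± 4.33. The median log2 fold change of the list was 0.16 for genotype and -0.18 for litter.

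Of the other constant regions, Iglc1 (lambda) was 242 ± 160 in Spry2IEKO and 78.8 ± 63.2 in Spry2FF mice, and the log2 fold change was 1.87 (standard error 0.729, limma adjusted p = 0.753). Ighg1 (IgG1) was 7.44 ± 10.2 and 2.16 ± 1.70, and Ighd 34.5 ± 44.3 and 20.3 ± 30.5. None of the 6 heavy and 4 light constant genes tested passed for genotype or litter. Over all 202 immunoglobulin symbols tested, none passed for genotype, and 169 estimates were positive, with a median of 0.84. Over all genes, 52.1% were positive. The symbols were measured in the same mice and are not separate pieces of evidence. The summed immunoglobulin signal was 13403 in Spry2IEKO 4 and 558 to 5198 in the other mice. For sex, which was unequal between the genotypes, 184 of the 202 were positive, with a median of 0.98, and none passed. For litter, 10 of the 202 passed, all lower in litter B, a share near the 4.38% of all genes.

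Of 11 receptors and signal carriers of BAFF and APRIL, none passed for genotype or litter. Tnfrsf13b (TACI, a further receptor of both ligands) was 3.68 ± 4.89 in Spry2IEKO and 1.32 ± 1.35 in Spry2FF mice. Traf3, an adaptor that restrains the signal of these receptors, had a log2 difference of litter B to litter A of -0.37 (limma adjusted p = 0.0641). Map3k14 (NIK), the kinase that Traf3 restrains, had a log2 fold change of -0.31 for genotype (limma adjusted p = 0.871).

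IgA class switching is driven in B cells by TGF-beta. Of 18 tested genes of this list, none passed for genotype and 2 were lower in litter B. Tgfbr2, a TGF-beta receptor, was 19.3 ± 4.21 (SD, n = 6) in litter B and 31.2 ± 3.34 in litter A (log2 difference -0.70, standard error 0.134, limma adjusted p = 0.0196). Smad3, which carries the signal of this receptor, was 13.6 ± 1.29 and 17.8 ± 2.73 (log2 difference -0.37, standard error 0.0745, limma adjusted p = 0.0224). Both genes are expressed by many cell types. Among 11 homing and niche genes, Cxcl12, a chemokine that retains plasma cells and is made by stromal cells, was 15.1 ± 3.96 in litter B and 28.1 ± 7.75 in litter A (limma adjusted p = 0.0334), and none passed for genotype. The share of genes passing for litter was 4.38% over all genes. Among females alone, with fewer mice, nearly all genes that passed for litter no longer did, as given further below.

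Of 18 tested genes of IgA transport and of the control of Pigr, none passed for either comparison. Muc13, a transmembrane mucin of the epithelium, was 1027 ± 111 in Spry2IEKO and 1272 ± 137 in Spry2FF mice (log2 fold change -0.31, standard error 0.0917, limma adjusted p = 0.628). Hnf4a, a transcription factor of enterocytes, was 257 ± 23.6 and 299 ± 38.6. Rab5a, a GTPase of early endosomes, had a log2 difference of 0.20 between litters (limma adjusted p = 0.0635), and Nfkb1, a subunit of NF-kB, -0.32 (limma adjusted p = 0.0681).

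Markers of other cell types were examined beside these genes. None of 15 mature B cell, 7 germinal center, 9 follicle stroma, 10 T cell, 12 macrophage and dendritic cell, 2 eosinophil, 10 colon epithelium, 6 smooth muscle and 5 fat markers tested passed for genotype. Rgs13, listed here as a germinal center B cell gene, was 4.85 ± 2.71 in Spry2IEKO and 1.70 ± 1.28 in Spry2FF mice (log2 fold change 1.31, limma adjusted p = 0.693). It was 1.35 to 8.89 in the 5 mice of high Ighm and 0.240 to 5.23 in the others. Which cells gave this signal was not tested. For litter, 1 of 9 follicle stroma, 1 of 12 macrophage and dendritic cell and 1 of 10 colon epithelium markers passed. None of the other lists of cell types had such a marker, and 4.38% of all genes passed, so these calls do not stand out. Ccl21a, a chemokine of lymphoid stroma and lymphatic vessels, was 34.1 ± 24.1 in litter B and 111 ± 34.3 in litter A (limma adjusted p = 0.0344). Cd68, a macrophage marker, was 5.87 ± 1.47 and 11.1 ± 2.63 (limma adjusted p = 0.0257), and Cdh1, the epithelial cadherin, 370 ± 37.2 and 431 ± 36.0 (limma adjusted p = 0.0282). Cdh1 ran against most of its list, in which 6 of 10 litter estimates were positive with a median of 0.12, such as Lgals4 (0.25, limma adjusted p = 0.0753), Krt19 (0.22, limma adjusted p = 0.209) and Epcam (0.12, limma adjusted p = 0.191).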

How the data were processed

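RNA from distal colon of 12 mice was sequenced by the study with a stranded mRNA kit. Per the labels, the submitters' processing notes name CASAVA, kallisto, sleuth and the mm10 build, without roles. The deposited values are a signal, transcript abundances (TPM) scaled once more between mice by the authors, so they keep no read depth. The paper gives an approximate depth per sample only. The table also holds the authors' test statistics, with p-values and q-values, which were not used. Of 113974 rows, 781 repeats were dropped and 113193 transcripts were summed to 35241 symbols. Genes with a mean signal of at least 0.5 (15880) were tested on log2(signal + 0.5) with limma 3.58.1 (R 4.3.3; empirical Bayes with trend, two-sided, Benjamini-Hochberg over all genes). Fold changes are on that scale and understate changes of low genes. Single values were compared by exact permutation (SciPy 1.17.1), two-sided. The scripts were tested on simulated data. Each mouse is 1 sample, and p-values measure the spread between mice. The members and lists were chosen with earlier results of these data known. The genes named were the 9 members, list genes past an adjusted p of 0.05 for genotype or litter or otherwise up to 3 of lowest p in each, the 3 nearest genes of each member, the 5 highest variable segments and Spry2. Groups came from the labels. The comparison of sexes, the composition tests and the fits without Spry2IEKO 4 and 5 were added after the data were seen. The alternatives were other pseudocounts, filters, covariates, scalings, and leaving out mice.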

Additional observations from a re-analysis of the deposited data

Results flagged for a closer look

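In 52 groups of 6 mice (1 genotype or 1 litter, for 1 measure), the highest or lowest mouse was compared with the others by Dixon's ratio of gap to range. Chance gives about 1 in 20 such groups if they are independent and their values normal, and 8 had a mouse far from the rest. The groups share mice, some of the genes rise and fall together, and signals were not transformed. The count of 8 can therefore not be judged against chance. Of the 8 groups, 6 concern Spry2IEKO 4. Its Igkc signal was 3470, against 215 to 1342 in the other Spry2IEKO mice and 334 to 1342 in the other mice of litter A. Its Jchain was 423, against 34.8 to 165 in the rest of litter A. Its Mzb1 was 29.5, against 1.54 to 7.32 in the other Spry2IEKO mice and 1.94 to 7.12 in the rest of litter A. Its Tnfrsf17 was 2.55, against 0 to 0.886 in the rest of litter A. The same mouse had high fat and B cell markers, whose part was not tested.

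The lambda share of light chain constant signal was 3.66% in Spry2FF 2, against 13.8% to 16.6% in the rest of litter A. The membrane share of Ighm was 51.7% in Spry2IEKO 5, against 75.9% to 84.9% in the other Spry2IEKO mice.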

How the results depend on the processing

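No member passed an adjusted p of 0.05 in limma under any alternative run. No paired analysis was possible because the groups share no replicate numbers. Litter, which the genotypes share, was used as the covariate instead, and 6 genes then passed for genotype, none of them a member. The number of all genes passing for genotype (5) was 3 with a mean of at least 0.1, 1 with no filter, 1 with sex, 1 with litter and sex, 2 with quantile normalization, 2 among females alone, 1 without Spry2IEKO 4 and 5, and 1 to 11 leaving out single mice. For litter (696, 171 higher and 525 lower in litter B) it was 422 with no filter, 1456 with equal totals for all mice (1351 lower), 1550 with equal totals without immunoglobulin genes, 1 among females alone, 17 without Spry2IEKO 4 and 5, and 180 (without Spry2IEKO 5) to 957 (without Spry2IEKO 8) leaving out single mice. For the interaction (2) it was 0 among females alone and 2 to 5. For sex (14) it was 9 in Spry2FF mice alone and 7 (without Spry2IEKO 8) to 20. Of the members, 0 had an exact permutation p under 0.05 for genotype, and 0 to 2 leaving out single mice (2 without Spry2IEKO 8). For litter these were 0 and 0 to 1 (1 without Spry2FF 2). The causes were not tested.

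Some log2 estimates changed sign. For genotype, Pigr was 0.0068 without Spry2IEKO 4 and 5 and -0.071 to 0.015 leaving out single mice. For litter, Tnfsf13b was -0.049 with equal totals and -0.052 without immunoglobulin genes; among females alone Ighm was 0.17 and Tnfrsf17 0.065; without Spry2IEKO 4 and 5 Jchain was 0.14 and Tnfrsf17 0.16. Leaving out single mice, litter estimates were -0.073 to 0.022 for Pigr, -0.30 to 0.15 for Tnfrsf17 and -0.080 to 0.15 for Tnfsf13b. The interaction with sex as covariate was 0.87 for Igha, 0.89 for Igkc, 0.95 for Jchain and 0.051 for Tnfrsf17, and among females alone 0.73, 0.097, 0.95 and 0.45. Leaving out single mice, it was -0.91 to 0.39 for Igha, -2.26 to 0.52 for Ighm, -1.29 to 0.30 for Igkc, -1.03 to 0.52 for Jchain, -1.57 to 0.071 for Mzb1, -0.074 to 0.14 for Pigr and -0.61 to 0.20 for Tnfrsf17. The paper gives an approximate read depth per sample, but the values keep no depth of single libraries. Low values such as Tnfrsf17 therefore carry an unknown counting error.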
